A study of Mus musculus with 4 samples.

Results

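The clustered protocadherins are cell-surface adhesion proteins encoded by the neighbouring Pcdha, Pcdhb and Pcdhg gene clusters. The members were all rows of the deposited mouse gene table whose symbol names a single alpha, beta or gamma protocadherin, which gave 58 of 55426 rows. They comprise 14 alpha, 22 beta and 22 gamma rows, a choice that used names and no measured value. In the annotation (GENCODE M21, GRCm38) all 58 lie on the plus strand of chromosome 18, from 36930184 to 37187661 for alpha, from 37264938 to 37524479 for beta and from 37661793 to 37841873 for gamma.

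In the alpha and gamma clusters each member starts from its own promoter and its own large variable exon, which encodes the extracellular cadherin repeats, the membrane span and part of the cytoplasmic tail. That exon is spliced to a short run of constant exons shared by the whole cluster. The beta genes are single exons and have no constant part. Neurons choose varying sets of these promoters, with CTCF and cohesin looping them to distant enhancers, and the resulting proteins pair with their like across cell contacts. The last variable exons of the alpha and gamma clusters, the C types, are regulated apart from the rest. In the retina the gamma cluster is known for self-avoidance of starburst amacrine cell dendrites and for survival of interneurons.

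RNA was measured in day 6 organoids by sequencing of poly(A)-selected RNA. All 4 libraries come from mouse cells labelled Rx:GFP with the genotype Mettl3 KO and a Dox-inducible HA-METTL3, so the knockout, the reporter and the transgene are shared by both groups. The 2 untreated libraries had no doxycycline (Dox) and the other 2 were treated with 2 µg/ml for 6 days. The comparison asks how transcript levels differ with and without Dox, named in the labels as the inducer of the METTL3 copy. Both groups were differentiated in the same medium, with the agent given as AGN, and carry a single batch date. The labels describe duplicates with independent library preparations and sequencing rounds, but name no clone and do not say that replicates were separate cultures, so p-values measure only the spread between these libraries. Titles read EV and EV+Dox without explaining EV, so whether the Dox libraries express the METTL3 copy cannot be told from the labels, and each difference below is one with Dox.

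The fitted depth was 31700000 to 34300000 fragments per library. FPKM counts fragments relative to transcript length and library depth. Mettl3 itself, the gene of the methyltransferase subunit that writes N6-methyladenosine, was listed at 40.33 and 37.98 FPKM untreated and at 45.2 and 46.37 FPKM with Dox (adjusted p = 0.122 in limma). This level neither checks the knockout nor separates the inducible copy. Of 8 eye-field and retinal progenitor markers, 7 rose with Dox and Pax6 did not pass the test, and their summed level went from 279.49 to 308.87 FPKM untreated to 1010.7 to 1173.66 FPKM with Dox. In the untreated libraries the retinal gene Six6 was close to 0, at 0.01 FPKM in each.

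How well a row can be told from its neighbours differs between the clusters. In the longest annotated transcript, 48.6% to 54.9% of the bases of an alpha member and 41.7% to 66.8% of those of a gamma A or B member lie in exons that other members also contain. The alpha and gamma rows are therefore not independent measurements. The beta rows share no exon, except that Pcdhb21 and Pcdhb22 overlap by 455 bases. Among windows of 150 bases, the read length, 93.3% to 100% of each beta transcript occurs in no other gene's transcript. For alpha that share is 4.51% to 52.7%, with the low end at Pcdha4, whose variable exon is also the first exon of the predicted read-through model Gm42416. The symbol Pcdha11 appears on 2 rows, and RefSeq names the Entrez gene of the row ENSMUSG00000007440 Pcdha10. That row is cited below by its identifier.

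**Figure D1:**
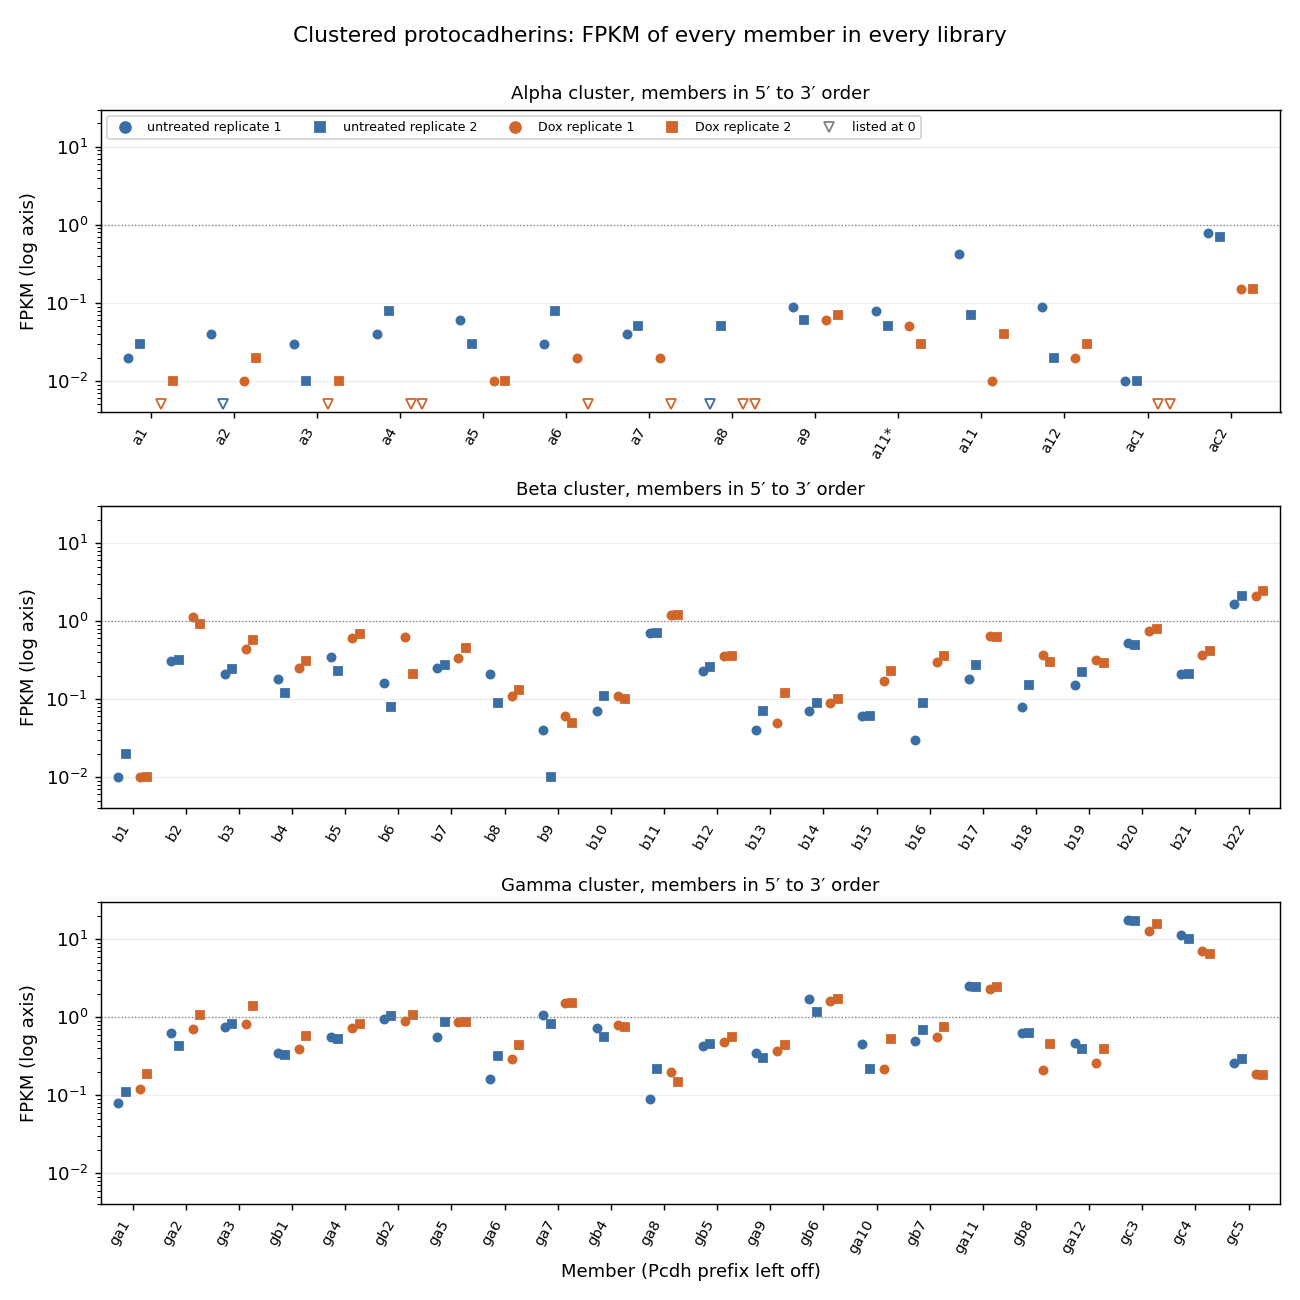
Each column is one member in its 5′ to 3′ order along the cluster and each point one library (FPKM on a log axis, open triangles for values listed at 0, a11* for the row ENSMUSG00000007440). Pcdhgc3 and Pcdhgc4 stand far above all other members, the alpha rows other than Pcdhac2 lie near the detection limit, and most beta rows have both Dox points above both untreated points.

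The 3 clusters differed in level and moved in different ways with Dox. The beta sum was 5.72 and 6.23 FPKM without Dox and 10.34 and 10.64 FPKM with it. The groups did not overlap, and the means of 5.98 ± 0.361 and 10.5 ± 0.212 FPKM (SD, n = 2 each) gave a ratio of 1.76. The alpha sum was lower, at 1.74 and 1.25 FPKM untreated and 0.35 and 0.37 FPKM with Dox, a 4.15-fold difference of the means. The single member Pcdhac2 held 45.4% and 56.8% of the alpha sum untreated and 42.9% and 40.5% with Dox. The gamma sum was 42.23 and 39.52 FPKM untreated and 33.21 and 38.75 FPKM with Dox. Its groups did not overlap either, but the ratio of the means was 0.880. The Dox libraries differed from each other more than Dox replicate 2 differed from untreated replicate 2. Without Pcdhgc4 the gamma sum was 30.78 and 29.52 FPKM untreated and 26.21 and 32.19 FPKM with Dox, with overlapping groups. No test was made of these sums, since the smallest exact two-sided permutation p for 2 libraries against 2 is 0.33. In these bulk samples fewer cells of a type and less RNA per cell cannot be told apart.

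Summed over all 58 members, the levels overlapped between the groups, at 48.3 ± 1.90 FPKM without Dox and 46.8 ± 4.14 FPKM with it (SD, n = 2 each). What differed was the make-up. The beta cluster held 11.5% and 13.3% of the total in the untreated libraries and 23.6% and 21.4% with Dox. The alpha share was 3.50% and 2.66% without Dox and 0.797% and 0.744% with it. The gamma cluster held most of the signal in every library, between 75.6% and 85.0%.

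**Figure D2:**
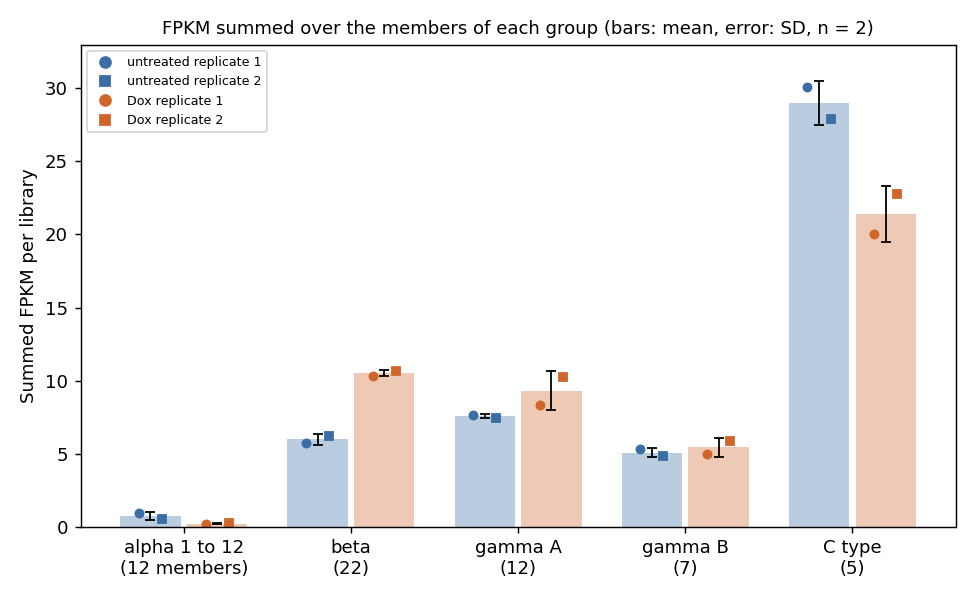
FPKM summed within each library over the members of 5 groups that do not share members, with points for libraries, bars for group means and error bars for the SD (n = 2). The beta group stands at 10.34 and 10.64 FPKM with Dox against 5.72 and 6.23 FPKM untreated, and the C types at 20.06 and 22.76 against 30.09 and 27.94 FPKM.

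Gene-wise tests across the whole table covered few members. Of the 58, only 6 reached a mean of 1 FPKM, the minimum used, and these are 5 gamma members and 1 beta member. Of these 6, limma called 1 lower with Dox, Pcdhgc4, and 0 higher at an adjusted p below 0.05. Over the 13931 rows tested, 4.44% were called higher and 4.87% lower. Before adjustment, p was below 0.05 for 1 member with a positive fold change (Pcdhga7) and 1 with a negative one, where the shares of all rows were 12% and 11.9%. With the minimum lowered to a mean of 0.1 FPKM, 41 members entered, 2 alpha, 17 beta and 22 gamma. Then Pcdhb2 was called higher and Pcdhgc4 and Pcdhac2 lower, where 2.96% of 19600 rows were called higher and 3.62% lower.

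Whether the libraries of the groups overlap can be listed for all 58 members, but it says little for rows of a few fragments. Both Dox libraries lay above both untreated ones for 24 members, below them for 12, and the groups overlapped for 22. Over the 27532 rows with any value above 0, 20.4% were higher and 21.8% lower in this sense. Among the 19600 rows with a mean of at least 0.1 FPKM those shares were 25% and 26%. By cluster the counts were 0 higher and 8 lower of 14 for alpha, 16 higher and 0 lower of 22 for beta, and 8 higher and 4 lower of 22 for gamma. Only 2 of the 14 alpha members reached a mean of 0.1 FPKM. The 8 lower alpha rows include Pcdhac1, at or under 3 fragments throughout, and Pcdha4, whose variable exon is also part of Gm42416. The median ratio of group means was 1.76 over the 22 beta members and 1.17 over the 22 gamma members, the log2 values being 0.82 and 0.22. The median log2 ratio of all 27532 rows was -0.0051.

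Pcdhgc4, the gamma C-type member known to be needed for neuronal survival, fell with Dox. Without Dox it was at 11.45 and 10 FPKM, and with Dox at 7.00 and 6.56 FPKM. The groups did not overlap, and the means of 10.7 ± 1.03 and 6.78 ± 0.311 FPKM (SD, n = 2 each) differ by a log2 fold change of -0.59 on the log2(FPKM + 1) scale (SE 0.104, adjusted p = 0.0253 in limma). The call was lost with each library rescaled to a common sum (adjusted p = 0.0566), without a filter on low values (adjusted p = 0.0984) and when any 1 library was left out. Leaving one out gave adjusted p-values of 0.164 and 0.0748 without untreated replicates 1 and 2, and of 0.107 and 0.148 without Dox replicates 1 and 2, with log2 fold changes between -0.68 and -0.50.

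Pcdhgc3, the most abundant member and a C type that can bind the Wnt pathway scaffold Axin1, did not pass the test. It was listed at 17.58 and 16.93 FPKM untreated and at 12.72 and 15.87 FPKM with Dox. Both Dox values lay below both untreated ones, with a log2 fold change of -0.26 and a 95% interval of -0.56 to 0.031 (adjusted p = 0.254 in limma). Its exons overlap the antisense gene BC037039, which was at 0.66 to 1.62 FPKM. Whether the authors counted by strand is not given in the sources used here. Exons of all 22 gamma members also overlap the model Gm38182, at 0.62 and 0.76 FPKM untreated and 0.67 and 1.01 FPKM with Dox.

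Pcdhgc3 and Pcdhgc4 together made up 68.7% and 68.1% of the gamma sum in the untreated libraries and 59.4% and 57.9% with Dox. The ratio of Pcdhgc3 to Pcdhgc4 was 1.54 and 1.69 without Dox and 1.82 and 2.42 with it, and the groups did not overlap in this ratio. Pcdhgc5, a C type known from mature synapses, was low, at 0.26 and 0.29 FPKM untreated and 0.19 and 0.18 FPKM with Dox. In the 0.1 FPKM fit it did not pass (adjusted p = 0.527 in limma). All 3 gamma C types had both Dox values below both untreated values, as did 1 of the other 19 gamma members, Pcdhgb8. So did 26% of all rows with a mean of at least 0.1 FPKM, and of the 3 C types only Pcdhgc4 was called in limma.

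Both C types of the alpha cluster also had lower values in each Dox library than in either untreated one, as had 21.8% of rows with any value. Pcdhac2, known for the spacing of serotonergic axons, was at 0.79 and 0.71 FPKM untreated and at 0.15 and 0.15 FPKM with Dox. This corresponds to about 145 and 138 fragments against 27 and 28, and to a 5.00-fold difference of the means. In the fit with the 0.1 FPKM minimum it fell, with a log2 fold change of -0.61 on the log2(FPKM + 1) scale (SE 0.0897, adjusted p = 0.0265 in limma). It was also called without any filter (adjusted p = 0.0361), where 1.22% of 27532 rows were called higher and 1.49% lower. Pcdhac1 was at 0.01 FPKM in each untreated library and at 0 with Dox, at or under the floor of 3 fragments throughout. None of the 5 markers of serotonergic neurons reached the 1 FPKM minimum. Fev was at 0 in all 4 libraries and Tph2 reached at most 0.01 FPKM. Slc6a4 was low but higher with Dox, at 0.01 and 0.02 FPKM untreated and at 0.05 and 0.15 FPKM with Dox. Gata2 and Gata3, which many other cells express, went from 0.18 to 0.30 FPKM untreated to 0.86 to 1.45 FPKM with Dox.

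Neuronal markers moved the same way as Pcdhgc4 and Pcdhac2. Of 12 markers fixed as a list, 9 were tested, of which 8 fell and 1, the synaptic vesicle gene Syt1, rose. Their summed level was 201.41 and 201.40 FPKM untreated and 97.92 and 99.45 FPKM with Dox. Of the 3 untested markers, Dcx, Rbfox3 and Snap25, each was lower in both Dox libraries. Their part in the protocadherin differences was not tested.

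None of the gamma A and B members was called in either direction by limma with either minimum, and 1, Pcdhga7, had an unadjusted p below 0.05. Their 19 rows had member means between 0.125 and 2.41 FPKM, and the sum was 12.6 ± 0.453 FPKM without Dox and 14.7 ± 2.01 FPKM with it (SD, n = 2 each). By library it was 12.94 and 12.30 FPKM without Dox and 13.30 and 16.14 FPKM with it, so most of that difference came from Dox replicate 2. Both Dox values were above both untreated values for 8 of the 19 and below them for 1. Among all rows with a mean of at least 0.1 FPKM, 25% were higher and 26% lower in this sense.

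Pcdhga11 was the highest of these, at 2.49 and 2.43 FPKM untreated and 2.27 and 2.43 FPKM with Dox. The 95% interval of its log2 fold change ran from -0.34 to 0.24 (adjusted p = 0.850 in limma). Pcdhga7 was at 1.06 and 0.83 FPKM untreated and at 1.52 and 1.54 FPKM with Dox. Its groups were apart, with a log2 fold change of 0.38 (SE 0.137), but it did not pass after adjustment (adjusted p = 0.170). Pcdhgb6 was at 1.73 and 1.16 FPKM untreated and 1.63 and 1.70 FPKM with Dox, within the spread of the untreated libraries.

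The remaining members named by rank gave similar pictures. Pcdhga3 was at 0.76 and 0.82 FPKM untreated and 0.82 and 1.39 FPKM with Dox, so that the groups met at 0.82. Pcdhgb2 was at 0.94 and 1.03 against 0.89 and 1.08 FPKM, with equal means, and Pcdhgb4 at 0.72 and 0.56 against 0.79 and 0.76 FPKM. Pcdhgb8, annotated as a polymorphic pseudogene, was at 0.62 and 0.63 FPKM untreated and at 0.21 and 0.46 FPKM with Dox. It is named, after its values were seen, as the 1 gamma A or B member with both Dox values below both untreated ones.

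In the beta cluster the group means were higher with Dox for 20 of 22 members, and both Dox libraries were above both untreated ones for 16. Over the 27532 rows with any value above 0, those shares were 47.1% and 20.4%. The 2 members with lower means were Pcdhb1, at or under 0.02 FPKM in every library, and Pcdhb8, whose libraries overlapped between the groups. Member levels were low, with means over the 4 libraries between 0.0125 and 2.06 FPKM and a median of 0.258 FPKM. Summed over the cluster, the values amounted to about 832 and 1011 fragments in the untreated libraries and 1405 and 1520 with Dox. The eye-field and retinal progenitor markers were higher in the same libraries, and their part in the beta difference was not tested.

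Pcdhb2 was the only beta member that passed a test. It was at 0.31 and 0.32 FPKM untreated and at 1.13 and 0.93 FPKM with Dox, about 26 and 28 fragments against 92 and 78. The means differ 3.27-fold. On the log2(FPKM + 1) scale, which understates changes of low genes, the fold change was 0.62 (SE 0.103, adjusted p = 0.0358 in limma with the 0.1 FPKM minimum). Without any filter, where 27532 rows were tested, the adjusted p was 0.0655. In that fit 13 of the 22 beta members had an unadjusted p below 0.05 and a positive fold change and 0 a negative one, and none passed after adjustment. Of all rows in that fit, 8.52% had an unadjusted p below 0.05 and a positive fold change, and 9.09% a negative one. With the 0.1 FPKM minimum, 7 of the 17 beta members tested had an unadjusted p below 0.05 and a positive fold change and 0 a negative one. The share over all rows was not taken for that minimum, so nothing is read from this count. Pcdhb16, among the 7, averaged 0.06 FPKM untreated and 0.33 FPKM with Dox, so it passed the minimum only through its Dox values.

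Pcdhb22 was the highest beta member and one of the least changed. It was at 1.64 and 2.12 FPKM untreated and at 2.07 and 2.41 FPKM with Dox, with overlapping groups and a 95% interval of the log2 fold change from -0.19 to 0.54 (adjusted p = 0.536 in limma). Its share of the beta sum was 28.7% and 34.0% without Dox and 20.0% and 22.7% with it. Without Pcdhb22 the beta sum was 4.08 and 4.11 FPKM untreated and 8.27 and 8.23 FPKM with Dox, a 2.01-fold difference of the means. Pcdhb11, the next highest, was at 0.71 FPKM in both untreated libraries and at 1.18 and 1.19 FPKM with Dox. That is 1.67-fold, about 96 and 102 fragments against 156 and 163, yet the adjusted p in the 0.1 FPKM fit was 0.125.

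Along the cluster the difference was uneven. The stretches described here were chosen after the values were seen and were not tested. The 5 neighbours Pcdhb2 to Pcdhb6 summed to 1.21 and 0.99 FPKM untreated and to 3.05 and 2.71 FPKM with Dox, 2.62-fold. The 4 neighbours Pcdhb15 to Pcdhb18 summed to 0.35 and 0.57 FPKM untreated and to 1.48 and 1.52 FPKM with Dox, 3.26-fold. In both stretches every member had both Dox libraries above both untreated ones. Between them, Pcdhb7 to Pcdhb14 summed to 1.62 and 1.61 against 2.30 and 2.50 FPKM, 1.49-fold, and 4 of these 8 members had overlapping groups. The last 4, Pcdhb19 to Pcdhb22, stood at 1.33-fold. Pcdhb16 had the largest ratio of means of any beta member, 5.50, from 0.03 and 0.09 FPKM to 0.30 and 0.36 FPKM. Pcdhb6 was apart in its replicates, at 0.63 FPKM in Dox replicate 1 and 0.21 FPKM in Dox replicate 2, so its ratio of 3.50 rests largely on 1 library.

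**Figure D3:**
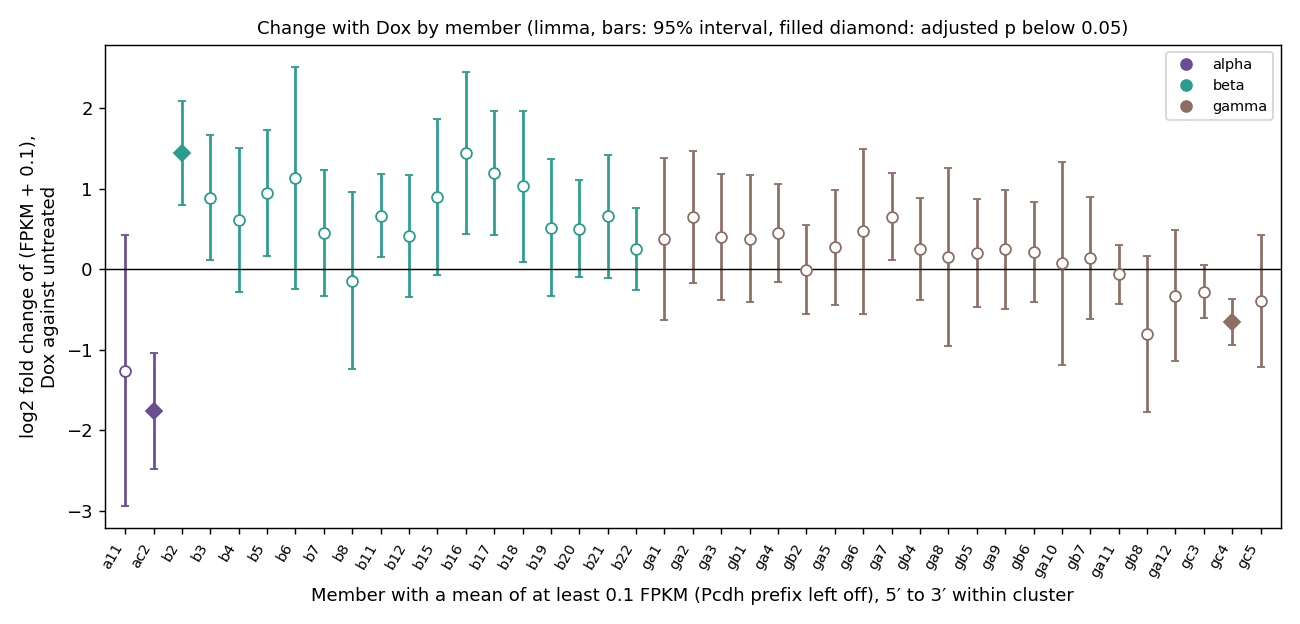
log2 fold change of FPKM + 0.1 with Dox against untreated for the 41 members with a mean of at least 0.1 FPKM, from limma, with 95% intervals and filled diamonds where the adjusted p was below 0.05. Only Pcdhac2 (-1.76), Pcdhb2 (1.44) and Pcdhgc4 (-0.65) are filled, while 16 of the 17 beta points lie above 0. Of all 19600 rows in this fit 3.06% were called higher and 3.65% lower, and 48.6% had a higher mean with Dox.

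The alpha cluster other than Pcdhac2 was close to the detection limit. The 12 members of the alpha 1 to 12 class summed to 0.94 and 0.53 FPKM untreated and to 0.20 and 0.22 FPKM with Dox, about 157 and 94 fragments against 33 and 38. All 12 had a lower mean with Dox, and for 6 of them both Dox libraries were below both untreated ones. Over the 27532 rows with any value above 0, 47.1% had a higher mean with Dox and 21.8% had both Dox libraries below both untreated ones. The alpha rows share constant exons. Apart from the Pcdha11 row ENSMUSG00000102206, each of these 6 had about 14 fragments or fewer in every library. Pcdha1 had about 3 and 5 untreated against 0 and 2 with Dox. The highest was the Pcdha11 row ENSMUSG00000102206, at 0.42 and 0.07 FPKM untreated and 0.01 and 0.04 FPKM with Dox. Untreated replicate 1 alone thus gave 0.42 of the 0.94 FPKM summed there. That row did not pass in the 0.1 FPKM fit with a pseudocount of 0.1 (adjusted p = 0.355 in limma).

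Pcdha9 was at 0.09 and 0.06 FPKM untreated and 0.06 and 0.07 FPKM with Dox. The row ENSMUSG00000007440 was at 0.08 and 0.05 against 0.05 and 0.03 FPKM. Both pairs of groups overlapped, and no fold is given at these levels. Pcdha4 was listed at 0.04 and 0.08 FPKM untreated and at 0 in both Dox libraries, whereas Gm42416, which contains the same variable exon, was listed at 0 untreated and at 0.04 and 0.03 FPKM with Dox. Reads from that exon cannot be told apart between these 2 models.

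Most genes that act on promoter choice in the clusters did not pass the test. Of 23 regulators, all tested, 2 rose and 0 fell, where 4.44% of all tested rows were called higher and 4.87% lower. Their median log2 fold change was 0.0034 beside -0.0042 over all tested rows. Chd8 was lower and Rest higher at an unadjusted p below 0.05, but neither passed after adjustment (adjusted p = 0.0656 and 0.163 in limma). The 2 that rose were the de novo DNA methyltransferase genes. Dnmt3b, known to methylate the variable-exon promoters early in development, rose from 14.3 ± 1.41 to 25.2 ± 1.22 FPKM (SD, n = 2 each, log2 fold change 0.78, adjusted p = 0.00674 in limma). Dnmt3a rose from 30.7 ± 2.69 to 43.6 ± 2.79 FPKM (0.49, adjusted p = 0.029).

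Both methyltransferase calls depended on the fit. That of Dnmt3b was lost without a filter (adjusted p = 0.0553) and without Dox replicates 1 (0.0565) and 2 (0.0766). That of Dnmt3a was also lost with rescaling to a common sum (0.0557), without the intensity trend (0.0534), without a filter (0.115) and when any 1 library was left out (0.0685 to 0.168). Ctcf, the gene of the looping factor, was at 79.7 ± 2.40 and 81.3 ± 5.80 FPKM (adjusted p = 0.868). Wapl, which releases cohesin, was at 28.7 ± 0.191 and 27.0 ± 2.59 FPKM (adjusted p = 0.596), and Smchd1, a silencer of the clusters, at 25.0 ± 0.559 and 23.7 ± 2.28 FPKM (adjusted p = 0.665). For these 3 genes the groups overlapped. The difference of the means was smaller than either SD for Ctcf, and smaller than the SD with Dox only for Wapl and Smchd1.

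Of 20 genes for binding, signalling and processing partners, 17 were tested, with a median log2 fold change of 0.038. Of these 17, 1 rose and 0 fell, where 4.44% of all tested rows were called higher and 4.87% lower. The one was Nlgn1, which encodes the synaptic adhesion protein neuroligin 1, a partner of gamma protocadherins, at 1.31 and 1.51 FPKM untreated and 7.34 and 7.85 FPKM with Dox (log2 fold change 1.84, adjusted p = 6.64e-04 in limma). The genes of the focal adhesion kinase Ptk2, the WAVE complex and the protease Adam10 did not pass. Marcks was lower and Fyn and the WAVE complex gene Wasf1 higher at an unadjusted p below 0.05. None of them passed after adjustment (adjusted p = 0.0917, 0.130 and 0.166 in limma). Of 12 genes beside or between the clusters, 10 were tested and 0 passed in either direction, also at an unadjusted p below 0.05. Taf7, between beta and gamma, was at 27.20 and 26.99 FPKM untreated and 25.56 and 24.20 FPKM with Dox (adjusted p = 0.379). Diaph1, which follows the gamma cluster, was at 10.30 and 8.73 against 9.31 and 10.69 FPKM (adjusted p = 0.787).

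The non-clustered protocadherins, related single genes outside the clusters that mediate cell sorting and axon growth, moved in both directions. Of 12, 7 were tested, 1 rose and 3 fell, where 4.44% of all tested rows were called higher and 4.87% lower. The median log2 fold change of the 7 was -0.25. Pcdh7 rose from 1.71 and 1.67 FPKM to 6.00 and 7.27 FPKM (log2 fold change 1.5, adjusted p = 0.00192 in limma). Pcdh18, the most abundant protocadherin of either kind, fell from 31.75 and 32.21 FPKM to 16.78 and 16.91 FPKM (-0.89, adjusted p = 0.00129). Pcdh10 fell from 2.41 and 2.24 FPKM to 0.41 and 0.62 FPKM (-1.14, adjusted p = 0.00747). Pcdh19, linked to epilepsy in humans, fell from 5.61 and 5.24 FPKM to 2.95 and 2.94 FPKM (-0.70, adjusted p = 0.0143). Its call was lost without a filter (adjusted p = 0.0741) and when any 1 library was left out (0.0718 to 0.101). In each of these 4 genes the groups lay apart by more than the replicates differed.

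**Figure D4:**
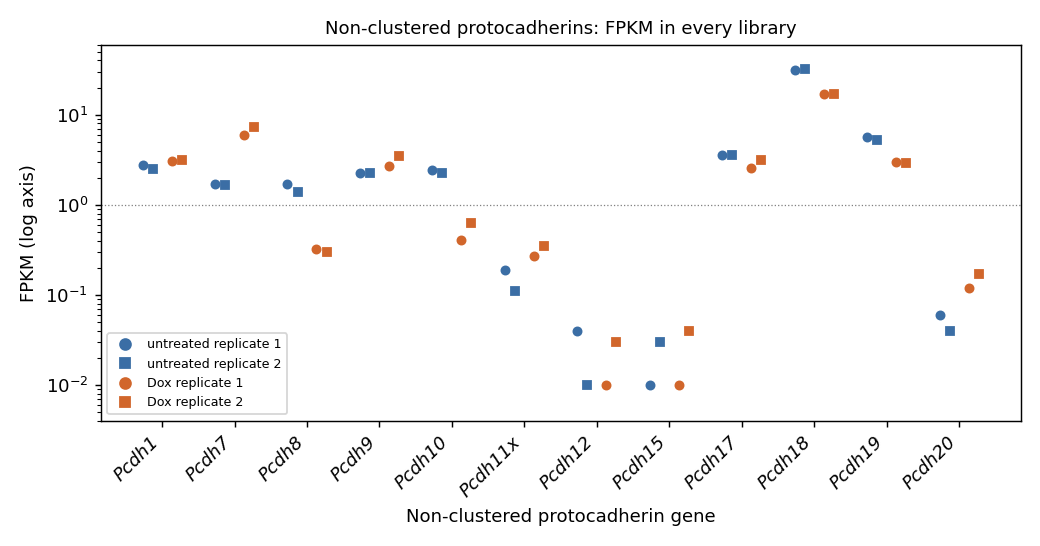
FPKM of the 12 non-clustered protocadherins in each library on a log axis, with the dotted line at 1 FPKM. Pcdh18 leads at 16.78 to 32.21 FPKM, and Pcdh7 is higher and Pcdh10, Pcdh18 and Pcdh19 lower with Dox in both replicates.

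Markers of other cell types gave mixed values. Of 4 oligodendrocyte-lineage genes 3 were tested, of which Olig2 and Sox10 fell and Pdgfra rose, and the list summed to 18.91 and 18.45 FPKM untreated and 3.84 and 3.38 FPKM with Dox. Of 5 mesenchyme and endothelium genes 3 were tested and 1 rose, Kdr. The list summed to 6.33 and 4.79 FPKM untreated and 19.60 and 22.38 FPKM with Dox. Kdr made most of that rise, from 0.22 and 0.25 to 13.91 and 17.63 FPKM. Col1a1, Col3a1 and Pecam1 overlapped between the groups, and Cdh5 was at 0.05 and 0.01 FPKM untreated and 0.43 and 0.61 FPKM with Dox. None of the 4 pluripotency genes passed in limma, 1 being lower at an unadjusted p below 0.05, and they summed to 16.97 to 24.69 FPKM in the 4 libraries. The part of any of these cell types in the protocadherin values was not tested.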

How the data were processed

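The authors deposited one table of FPKM values per gene and library, rounded to 2 decimals. STAR, Cuffdiff and the build mm10 are named in the submitters' processing notes, with no versions or roles; annotation release and strand setting are not given in the sources used here. How reads in shared constant exons were divided among members rests on that upstream step. Libraries were grouped by the treatment label. Values were transformed to log2(FPKM + 1), and limma 3.58.1 under R 4.3.3 tested rows averaging at least 1 FPKM (eBayes with trend, two-sided, Benjamini-Hochberg over 13931 rows, threshold 0.05) over all 4 libraries with no covariate. The fit was tested on simulated data.

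Depth was fitted from the steps of low values of single-transcript genes of 450 to 1200 nt, as the setting that put most values near a whole fragment. There 76.1% to 79.5% lay within a tolerance of at most 0.1 of a whole fragment, against a mean of 19.5% to 20.7% at other settings. Fragments per member are estimates from FPKM, longest transcript and depth, and a floor of 3 fragments covers counting error only. Exons and windows came from GENCODE M21, which matched 58 of 58 members. Sums are plain sums of FPKM.

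Given in full were members averaging at least 1 FPKM, the C types and the 3 highest per class; from other lists, up to 4 called genes, and Ctcf, Smchd1, Dnmt3b and Wapl. The members and lists were chosen with earlier results of these data known. Alternatives were a pseudocount of 0.1, no filter or a minimum of 0.1 FPKM, rescaling to a common sum, the replicate number as a block, no trend and each library left out. The combined minimum and pseudocount of 0.1 and the 0.1 FPKM minimum with a library left out were added after seeing the data. So were the beta sum without Pcdhb22 and the gamma sum without Pcdhgc4. Promoter sequences of the members were not used here.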

Additional observations from a re-analysis of the deposited data

How the results depend on the processing

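The sums kept their direction in every setting tried. Rescaling to a common sum gave log2 ratios of -2.03 for alpha, 0.84 for beta and -0.16 for gamma, against -2.05, 0.81 and -0.18. With one library left out at a time they were -2.27 to -1.80, 0.75 to 0.87 and -0.30 to -0.077. The beta ratio was 1.01 without Pcdhb22. Without Pcdhgc4 the gamma ratio was -0.046 and the gamma groups overlapped. The number of members called depended on the fit: against 0 higher and 1 lower of 6 tested, the 0.1 FPKM minimum gave 1 and 2 of 41, also with a pseudocount of 0.1. Rescaling to a common sum gave 0 lower. With a library left out, which leaves a lone sample assumed to vary like the other group, 0 to 0 members were called lower. In the 3-library fits with the 0.1 FPKM minimum limma called 0 of all 19600 rows, so they say nothing of stability. In them the log2 fold change was 0.55 to 0.70 for Pcdhb2 and -0.64 to -0.57 for Pcdhac2. Signs turned only for genes that had not passed: Pcdhgb6 without untreated replicate 2 (-0.035, highest 0.30), Pcdhgb2 without untreated replicate 2 (0.031) or Dox replicate 1 (0.068), Ctcf without untreated replicate 2 (-0.0032) or Dox replicate 2 (-0.045, highest 0.099), Smchd1 (0.018, lowest -0.17) and Wapl (0.0051) without Dox replicate 1. In the fit with a replicate block Pcdhgc4 stayed called (adjusted p = 0.0327 in limma), with 0 members higher and 1 lower. Nothing shows that equal numbers pair libraries: deviations of same-numbered libraries correlated at -0.043. Over all rows, fits with the 1 FPKM minimum called 262 to 622 higher and 331 to 678 lower, lowest without Dox replicate 2. Without a filter limma called 336 and 409, and the 0.1 FPKM fits on all 4 libraries 581 and 709, or 600 and 716 with a pseudocount of 0.1. The median log2 fold change of all rows stayed between -0.0084 and 0.016. The cause of the lost calls was not tested. Depth limits the members at or under 3 fragments in every library, Pcdhac1 and Pcdhb1, for which no fold is given.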
